A study of Mus musculus with 18 samples.

Results

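The transcripts described here are those of the enzymes that build glycosaminoglycan chains, the long sulfated sugars that hang from proteoglycans. Members were chosen by symbol from a list of 10 enzymes of the linker, heparan sulfate and chondroitin sulfate pathways, and 9 of them (Xylt1, Xylt2, B4galt7, B3gat3, Ext1, Ext2, Ndst1, Chsy1 and Chpf) were found among the 18204 genes of the deposited table. The tenth name, Chst11, was not analysed here. The list was drawn up because Xylt1 TPM were higher with both inhibitors, and all 18 samples served in that choice, so the values of Xylt1 are described without a test throughout, whereas the other members were picked for their role in the pathway. RNA sequencing covered 18 samples of the mouse macrophage line J774.1 in 6 groups of 3, which the study describes as biological triplicates: wildtype cells and cells labelled Ctbp1/2dKO (dKO, with a premature stop and a frameshift introduced in both genes), each with a PBS/DMSO vehicle, 1.5 mM MTOB or 0.25 mM 4-Cl-HIPP for 4 h. MTOB is a keto acid that binds the substrate pocket of the CTBP dehydrogenase domain, and 4-Cl-HIPP, a propanoic acid with a chlorophenyl and an oxime group, is another inhibitor of these proteins. The dKO cells were obtained by electroporation of Cas9 with guide RNAs and outgrowth of single cells, and the sources used here do not say how many clones were sequenced, so that a difference between genotypes and a difference between clones cannot be told apart. The inhibitors were dissolved in different solvents, and each genotype had a single vehicle group for both.

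Glycosaminoglycan chains start with a xylose that XYLT1 or XYLT2 places on a serine of a core protein. B4GALT7, a galactosyltransferase, and B3GAT3, a glucuronyltransferase, help to complete the short linker that all such chains share. From there EXT1 and EXT2 polymerise heparan sulfate as a complex and NDST1 begins its sulfation, whereas CHSY1 polymerises chondroitin sulfate together with CHPF, its partner in the polymerase. In macrophages these chains bind chemokines, growth factors and lipoproteins, and the core protein serglycin carries them in secretory granules.

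Expression is given as TPM, transcripts normalised to length and library total, a level that can be compared between genes, and each sample summed to between 999766.5 and 999896.9 TPM, so the sequencing depth of the samples is unknown. Between replicates the Pearson r of log2(TPM + 1) over genes was 0.984 to 0.988, and no sample repeated another. Of the targeted genes, Ctbp1 had 170 to 238 TPM in the wildtype and 19.7 to 31.5 TPM in the dKO samples, and Ctbp2 had 87.8 to 96.9 and 68.5 to 81.9 TPM. The study reports loss of both proteins by western blot, which these RNA levels do not measure. Of 10 macrophage markers 9 were measured, at a summed 2397 to 3493 TPM, and the fibroblast, epithelial, lymphocyte and granulocyte markers measured stayed at or below 2.37 TPM per list in every sample. In RNA from whole wells, fewer cells that express a gene and less RNA per cell cannot be told apart.

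In wildtype cells under vehicle the levels of the enzymes ran from Ext2 at 45.4 ± 1.58 TPM (SD, n = 3) through B3gat3 (29.9), Chsy1 (20.6), B4galt7 (17.6), Chpf (14.5), Xylt2 (10.7) and Xylt1 (2.97) to Ndst1 at 0.408 ± 0.138 and Ext1 at 0.0656 ± 0.0372 TPM (SD, n = 3). The 3 samples of each gene lay apart from those of its neighbours in this order. Both heparan sulfate entries at the bottom had a partner or paralog at a higher level, since Ext2 was the highest of the 9 and Ndst2, which encodes a second N-deacetylase/N-sulfotransferase, had 24.4 ± 6.04 TPM (SD, n = 3). In dKO cells under vehicle the order of the means was the same, but Chpf and Xylt2 overlapped, at 8.52 and 8.41 TPM, as did Chsy1 and B4galt7, at 19.2 and 17.2 TPM.

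**Figure D1:**
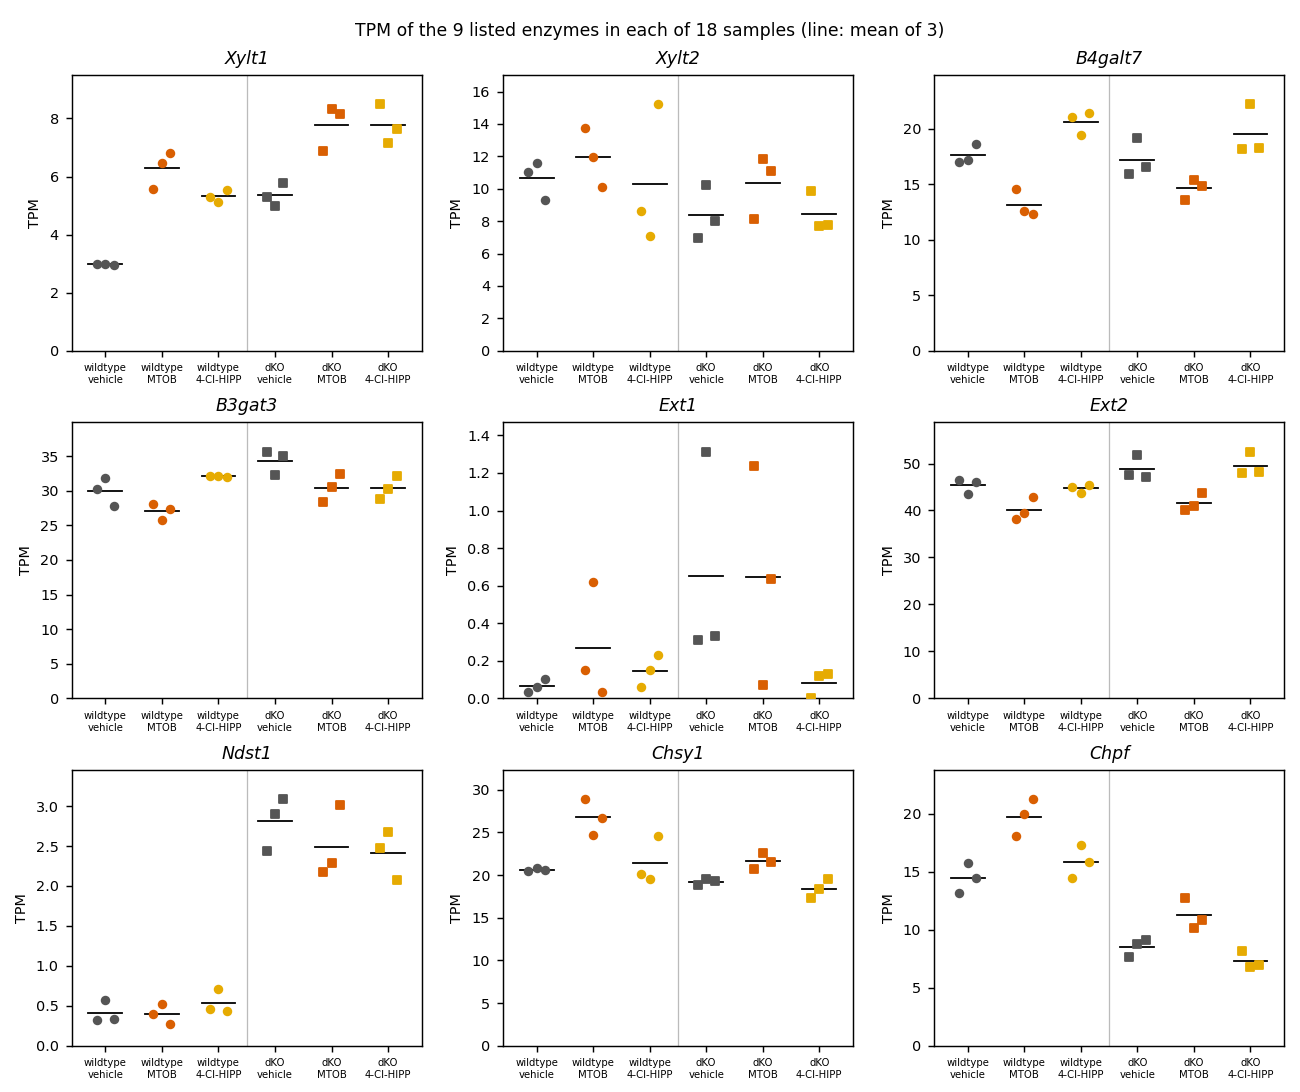
TPM of the 9 enzymes in each of the 18 samples, with 1 panel per gene, 1 point per sample, wildtype as circles and dKO as squares, and a line at the mean of each group of 3. Xylt1 was lowest in the wildtype vehicle samples (2.96 to 2.99 TPM), Ndst1 was above 2 TPM only in dKO samples, and Chpf lay below its wildtype level in dKO cells under each treatment.

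Xylt1 (ENSMUSG00000030657, chromosome 7, 116979979 to 117272803, plus strand, GRCm39 as for all genes below) encodes one of the enzymes that place the first sugar. In wildtype cells its 3 vehicle samples had 2.99, 2.97 and 2.96 TPM. With MTOB they had 5.58, 6.46 and 6.82 TPM, and with 4-Cl-HIPP 5.30, 5.13 and 5.54 TPM. All treated samples were above all vehicle samples, with a mean 2.11 times that of vehicle for MTOB and 1.79 times for 4-Cl-HIPP, or differences of 0.87 and 0.67 on the log2(TPM + 1) scale. In dKO cells the vehicle samples had 5.31, 4.99 and 5.77 TPM, the MTOB samples 6.88, 8.33 and 8.14 TPM and the 4-Cl-HIPP samples 8.49, 7.14 and 7.64 TPM. Again the treated samples lay above the vehicle samples, with means 1.45 times that of vehicle for either inhibitor and log2 differences of 0.47 and 0.46. The inhibitor comparisons within a genotype share their vehicle samples and are what the list was chosen on. Between genotypes the Xylt1 samples did not overlap under any treatment, with dKO means 1.80 times those of wildtype under vehicle, 1.24 times with MTOB and 1.46 times with 4-Cl-HIPP, or log2 differences of 0.68, 0.27 and 0.47. The choice favoured low wildtype vehicle and high inhibitor values, and these differences rest on the same samples.

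Ranked by their means, the wildtype vehicle samples (2.97 TPM) had the lowest Xylt1 level and stood apart from all other groups. Wildtype cells with 4-Cl-HIPP (5.32 TPM) and dKO cells under vehicle (5.35 TPM) overlapped, dKO cells under vehicle and wildtype cells with MTOB (6.29 TPM) overlapped, and dKO cells with 4-Cl-HIPP (7.76 TPM) and with MTOB (7.79 TPM) overlapped above them. The 5 genes whose 6 group means of log2(TPM + 1) were nearest to those of Xylt1 after centring, out of 11043 genes that reached 10 in the mean normalized count, were 6330418K02Rik, Trib1, Gm8909, Hap1 and Pdgfb, with root mean square differences of 0.09 to 0.15. Trib1 encodes a pseudokinase, Hap1 a partner of huntingtin and Pdgfb a chain of platelet-derived growth factor. This likeness is a description over 6 group means.

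Comparisons were made with limma on log2(TPM + 1), with p-values adjusted by Benjamini-Hochberg over all 16383 genes fitted and a threshold of 0.05. The paralog of Xylt1, Xylt2 (ENSMUSG00000020868, chromosome 11, 94553166 to 94568367, minus strand), which catalyses the same step, passed the threshold in none of the 7 comparisons (limma, adjusted p = 0.481 to 1). Its TPM ranged from 6.97 to 15.2 over the 18 samples, and the highest value was a single wildtype 4-Cl-HIPP sample whose replicates had 8.65 and 7.09 TPM. Under vehicle the means were 10.7 ± 1.21 TPM in wildtype and 8.41 ± 1.65 TPM in dKO cells (SD, n = 3), and all groups overlapped with their neighbours in the order of the means. The interval of the difference between MTOB and vehicle in wildtype cells ran from -0.32 to 0.61 on the log2 scale.

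Xylt1 TPM as a share of the summed TPM of both xylosyltransferases was 21.9% ± 1.95 (SD, n = 3) in wildtype cells under vehicle and 39.3% ± 5.65 (SD, n = 3) in dKO cells under vehicle. It was 34.8% ± 5.73 and 43.1% ± 2.45 with MTOB, and 35.5% ± 7.94 and 48.0% ± 1.69 with 4-Cl-HIPP, in wildtype and dKO cells (SD, n = 3). The wildtype vehicle samples, at 20.4% to 24.1%, were below all others. The summed TPM were 13.6 ± 1.22 and 13.8 ± 1.46 under vehicle (SD, n = 3), in wildtype and dKO cells. In the same order they were 18.2 ± 1.22 and 18.1 ± 2.78 with MTOB, and 15.6 ± 4.51 and 16.2 ± 1.90 with 4-Cl-HIPP (SD, n = 3). These shares carry the Xylt1 values that chose the list and were not tested.

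**Figure D2:**
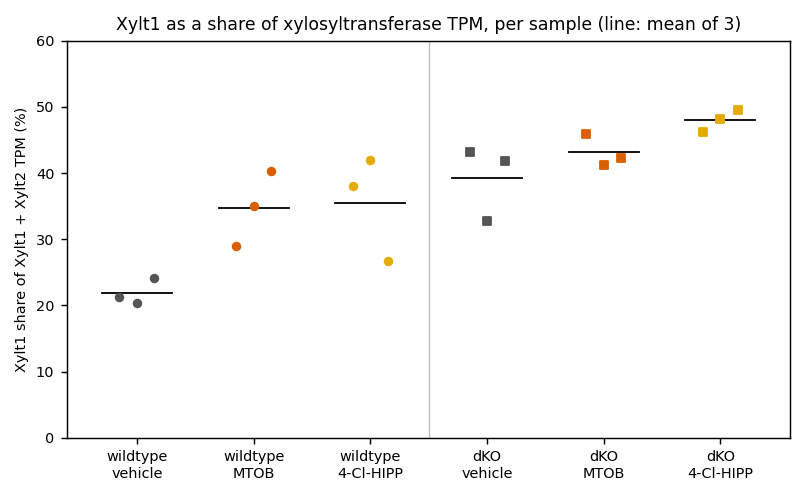
Xylt1 TPM as a percentage of Xylt1 plus Xylt2 TPM, with 1 point per sample, wildtype as circles, dKO as squares, and a line at the mean of each group of 3. The wildtype vehicle samples sit at 20.4% to 24.1% and the dKO 4-Cl-HIPP samples at 46.2% to 49.6%.

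With MTOB in wildtype cells, both subunits of the chondroitin polymerase rose and B4galt7 fell, while the other 5 members tested did not pass the threshold. The 3 members called, of 8 tested, stand beside 7.26% of all genes in this comparison (3.8% higher and 3.46% lower). None of the 3 changed by more than 1.5-fold on the log2(TPM + 1) scale, a limit that 2.01% of all genes passed together with the adjusted p-value. The median difference of the 8 was 0.067, against -0.006 over all genes.

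Chsy1 (ENSMUSG00000032640, chromosome 7, 65759199 to 65824975, plus strand) had 20.4, 20.8 and 20.6 TPM in the wildtype vehicle samples and 28.9, 24.7 and 26.7 TPM with MTOB. The groups did not overlap, and the difference was 0.36 on the log2 scale (SE 0.08, limma adjusted p = 0.00943). Chpf (ENSMUSG00000032997, chromosome 1, 75451206 to 75455951, minus strand) had 13.2, 15.8 and 14.5 TPM under vehicle and 18.1, 19.96 and 21.3 TPM with MTOB, also without overlap. Its difference was 0.42 (SE 0.10, limma adjusted p = 0.0206). B4galt7 (ENSMUSG00000021504, chromosome 13, 55747709 to 55758733, plus strand) had 17.0, 17.2 and 18.6 TPM under vehicle and 14.6, 12.6 and 12.3 TPM with MTOB. All MTOB samples were lower, by 0.40 on the log2 scale (a difference of -0.40, SE 0.10, limma adjusted p = 0.0185). The call for Chsy1 was lost without wildtype MTOB replicate 1 (limma adjusted p = 0.0504), that for B4galt7 without wildtype vehicle replicate 3 or MTOB replicate 2 or 3 (0.0721 to 0.0775) and that for Chpf without wildtype vehicle replicate 1 or 3 or MTOB replicate 2 or 3 (0.0608 to 0.0912). When the fit held the compared groups alone, B4galt7 (limma adjusted p = 0.0706) and Chpf (0.0801) were not called, and the summed macrophage markers, at 2772 to 2862 TPM with vehicle and 3318 to 3493 TPM with MTOB in wildtype cells, were higher in the same samples. Of the 9 markers 4 rose (Cd14, Lyz2, Adgre1 and Cd68) and none fell, and their part in the result was not tested.

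Because these 3 genes moved with MTOB, their promoters are printed, from RefSeq on GRCm38.p6, 250 bases before and 50 after the annotated start, 5′ to 3′ on the gene's strand. Capitals mark matches, on either strand, to CACCC, the box of Krüppel-like factors, CAGGTG, an E-box of ZEB factors, or TGACNNNGC, a core of the antioxidant response element, and no matches overlapped in these windows.
Chsy1: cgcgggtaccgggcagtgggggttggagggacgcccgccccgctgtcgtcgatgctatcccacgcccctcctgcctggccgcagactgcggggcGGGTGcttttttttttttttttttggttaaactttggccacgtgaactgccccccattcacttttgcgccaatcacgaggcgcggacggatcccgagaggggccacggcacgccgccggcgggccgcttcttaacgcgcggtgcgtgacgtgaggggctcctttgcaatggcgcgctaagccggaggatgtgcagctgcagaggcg
Chpf: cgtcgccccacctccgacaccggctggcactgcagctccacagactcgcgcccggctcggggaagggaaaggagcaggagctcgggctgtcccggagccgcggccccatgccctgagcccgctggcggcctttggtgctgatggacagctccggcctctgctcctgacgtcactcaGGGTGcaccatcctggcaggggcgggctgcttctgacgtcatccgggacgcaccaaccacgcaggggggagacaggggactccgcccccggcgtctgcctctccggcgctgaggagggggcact
B4galt7: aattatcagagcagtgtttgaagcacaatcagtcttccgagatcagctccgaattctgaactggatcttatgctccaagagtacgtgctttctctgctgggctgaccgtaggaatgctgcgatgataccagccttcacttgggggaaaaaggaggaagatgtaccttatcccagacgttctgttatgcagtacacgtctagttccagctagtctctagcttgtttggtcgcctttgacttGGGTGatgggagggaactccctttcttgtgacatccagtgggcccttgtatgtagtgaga
The windows are chr7:66109242-66109541 (plus strand) for Chsy1, chr1:75479422-75479721 (minus strand) for Chpf and chr13:55599646-55599945 (plus strand) for B4galt7. Each held 1 CACCC match, read as GGGTG on the gene's strand, and neither of the other motifs. Of all 32851 RefSeq promoters of this length, 57.5% held CACCC, 20.2% CAGGTG and 12.4% TGACNNNGC. The promoters of Chsy1 and Chpf had 34 and 26 CpG dinucleotides, above the upper quartile of all promoters (20), and that of B4galt7 had 8, near their median of 7. Of the 10 names 7 matched the promoter table, of which 5 held CACCC, 1 CAGGTG and 2 TGACNNNGC, and Xylt1, Ext1 and Ndst1 did not match.

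In dKO cells with MTOB, Ext2, a subunit of the heparan sulfate polymerase, was the single member of 8 tested past the threshold, beside 6.58% of all genes (3.04% higher and 3.54% lower). It did not exceed 1.5-fold, as 1.63% of all genes did. Ext2 (ENSMUSG00000027198, chromosome 2, 93491373 to 93653003, minus strand) had 47.6, 51.7 and 47.1 TPM under vehicle and 40.1, 40.9 and 43.8 TPM with MTOB in dKO cells. The groups did not overlap, and Ext2 fell by 0.22 on the log2 scale (SE 0.06, limma adjusted p = 0.0281). In wildtype cells it had 43.6 to 46.5 TPM under vehicle and 38.1 to 43.0 TPM with MTOB, a difference of -0.17 that did not pass (SE 0.06, limma adjusted p = 0.0901) but did without wildtype MTOB replicate 3 (0.0455). The call in dKO cells was lost without dKO vehicle replicate 1 or 2 or dKO MTOB replicate 1 or 2 (limma adjusted p = 0.0508 to 0.131) and when the fit held the compared groups alone (adjusted p = 0.138).

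The 3 members called in wildtype cells had differences of the same sign in dKO cells without passing there. Chpf had 7.70, 8.78 and 9.09 TPM under vehicle and 12.8, 10.1 and 10.9 TPM with MTOB in dKO cells, a difference of 0.36 (SE 0.10, limma adjusted p = 0.0521), and it passed with TPM rescaled between samples (adjusted p = 0.0421) or without dKO MTOB replicate 2 (0.0391). Chsy1 had 18.9 to 19.5 TPM under vehicle and 20.7 to 22.6 TPM with MTOB, a difference of 0.16 (limma adjusted p = 0.288). B4galt7 had 16.0 to 19.1 and 13.6 to 15.4 TPM, a difference of -0.22 (limma adjusted p = 0.228). For all 3 the MTOB samples lay apart from the vehicle samples in dKO cells too. The shares of all genes that kept their sign or lay apart in this way were not computed. B3gat3, the glucuronyltransferase of the linker, had 27.8 to 31.8 TPM under vehicle and 25.7 to 28.1 TPM with MTOB in wildtype cells (-0.14, limma adjusted p = 0.319) and 32.2 to 35.7 and 28.3 to 32.4 TPM in dKO cells (-0.17, limma adjusted p = 0.202), with overlap in both. The summed macrophage markers were 2514 to 2582 TPM under vehicle and 2605 to 2927 TPM with MTOB in dKO cells, where 3 of the 9 rose (Cd14, Lyz2 and Spi1), and their part in these values was not tested.

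Whether the effect of MTOB differed between genotypes was tested for the 8 members other than Xylt1, and 0 passed an adjusted p-value below 0.05 or an unadjusted p-value below 0.05 (limma), in a comparison where 0.0916% and 6.89% of all genes did so. The difference between the effects (wildtype minus dKO) was 0.20 for Chsy1 with an interval of -0.03 to 0.44, 0.06 for Chpf (-0.25 to 0.38), -0.18 for B4galt7 (-0.47 to 0.11) and 0.05 for Ext2 (-0.12 to 0.22), each a 95% interval on the log2 scale. For Xylt1 the effect was 0.87 in wildtype and 0.47 in dKO cells, which is given without a test.

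**Figure D3:**
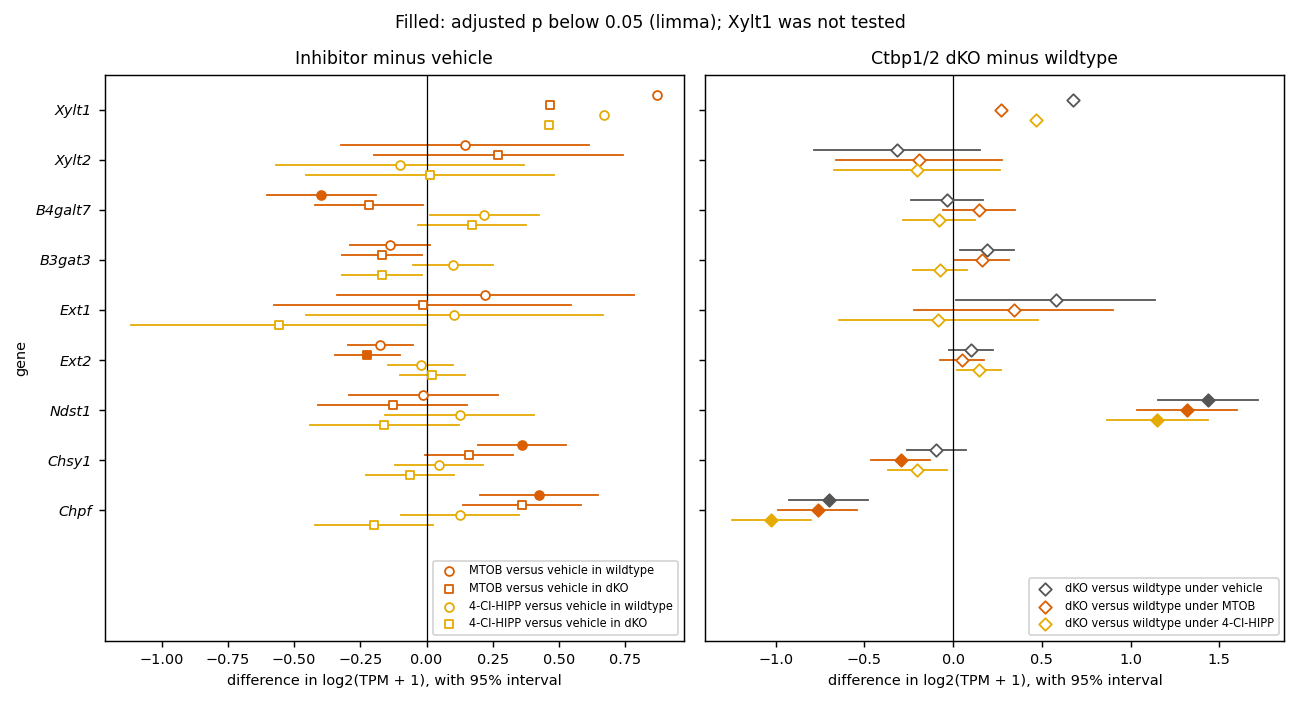
Differences in log2(TPM + 1) for the 9 enzymes (y axis), inhibitor minus vehicle on the left and dKO minus wildtype on the right, with 95% intervals and filled symbols where the adjusted p-value was below 0.05. Filled symbols on the left are B4galt7, Chsy1 and Chpf with MTOB in wildtype and Ext2 with MTOB in dKO cells, and on the right Ndst1 and Chpf under all 3 treatments and Chsy1 with MTOB. Xylt1 has no interval because it was not tested.

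With 4-Cl-HIPP, 0 of the 8 members other than Xylt1 passed the threshold in wildtype cells and 0 in dKO cells (limma, Benjamini-Hochberg), beside 0.366% and 0.501% of all genes. At an unadjusted p-value below 0.05 there was 1 of the 8 in each genotype, beside 8.19% and 8.47% of all genes. In wildtype cells it was B4galt7, with 19.4 to 21.4 TPM against 17.0 to 18.6 TPM under vehicle and a difference of 0.22 (95% interval 0.01 to 0.42, limma adjusted p = 0.556). In dKO cells it was B3gat3 (ENSMUSG00000071649, chromosome 19, 8897586 to 8904605, plus strand), with 28.8, 30.3 and 32.2 TPM against 35.7, 32.2 and 35.02 TPM under vehicle and a difference of -0.17 (95% interval -0.32 to -0.02, limma adjusted p = 0.506). In both cases the groups did not overlap, and the B3gat3 groups were separated by less than 0.1 TPM.

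B3gat3, Ndst1 and Chpf lay on opposite sides of the vehicle mean in the genotypes with 4-Cl-HIPP, above it in every wildtype and below it in every dKO sample, although 1 wildtype sample of Chpf equalled the mean to 3 digits (14.5 TPM). These 3 of 8 members stand beside 5.41% of all genes whose samples lay on opposite sides in this way, in either direction. This criterion was not planned, and with MTOB none of the 8 members met it. The difference between the effects (wildtype minus dKO) was 0.27 for B3gat3 (95% interval 0.05 to 0.48), 0.32 for Chpf (0.01 to 0.64) and 0.28 for Ndst1 (-0.11 to 0.68), and none passed (limma, adjusted p = 1 for each). Past the adjusted threshold there was 0% of all genes, and at an unadjusted p-value below 0.05 there were 2 of the 8 members beside 4.48% of all genes. In wildtype cells Chpf had 14.5, 17.3 and 15.9 TPM with 4-Cl-HIPP, overlapping with vehicle, and in dKO cells 8.14, 6.78 and 6.99 TPM, also overlapping.

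Between genotypes Ndst1 and Chpf differed under all 3 treatments. Under vehicle 2 of the 8 members other than Xylt1 passed, with Ndst1 higher and Chpf lower in dKO cells, beside 10.7% of all genes (7.01% higher and 3.72% lower), and both also exceeded 1.5-fold, beside 4.83% of all genes. The median over the 8 was 0.03 against 0.012 over all genes. The same comparison under MTOB and under 4-Cl-HIPP used other samples, and Ndst1 and Chpf passed there in the same directions. All 3 comparisons share the estimate of the spread, and how many clones they hold is not known. In the labels every wildtype library has a lower library number than every dKO library. Genotype and the order of the libraries therefore cannot be told apart in any of these comparisons. With MTOB 3 members passed, the other being Chsy1, beside 11.2% of all genes (6.98% higher and 4.18% lower), and with 4-Cl-HIPP 2 passed, beside 10.2% (6.6% higher and 3.63% lower). In each of these, 2 members exceeded 1.5-fold as well, Ndst1 and Chpf, beside 4.95% and 4.72% of all genes.

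Ndst1 (ENSMUSG00000054008, chromosome 18, 60817566 to 60881766, minus strand), which removes acetyl groups from and sulfates the heparan sulfate chain, was low in wildtype cells, at 0.320, 0.567 and 0.336 TPM under vehicle. In dKO cells it had 2.43, 2.90 and 3.09 TPM under vehicle, a mean 6.89 times that of wildtype. The difference was 1.44 on the log2(TPM + 1) scale (SE 0.13, limma adjusted p = 1.88e-06), and it was 2.54 with a pseudocount of 0.1 (adjusted p = 1.5e-06). With MTOB the samples had 0.394, 0.517 and 0.275 TPM in wildtype and 2.17, 2.29 and 3.01 TPM in dKO cells, a mean 6.31 times as high and a difference of 1.32 (SE 0.13, limma adjusted p = 4.6e-06). With 4-Cl-HIPP they had 0.456, 0.708 and 0.442 TPM and 2.47, 2.68 and 2.08 TPM, a mean 4.50 times as high and a difference of 1.15 (SE 0.13, limma adjusted p = 1.93e-05). The lowest of the 9 dKO samples (2.08 TPM) was above the highest of the 9 wildtype samples (0.708 TPM), and the inhibitors left the level within each genotype overlapping with vehicle.

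Even in dKO cells Ndst1 remained below its paralog. As a share of the summed TPM of Ndst1 and Ndst2 it was 1.70% ± 0.643 in wildtype and 11.2% ± 1.26 in dKO cells under vehicle (SD, n = 3). Ndst2 itself had 18.9 to 30.9 TPM in wildtype and 21.5 to 23.1 TPM in dKO cells under vehicle, a difference of -0.11 (SE 0.14, limma adjusted p = 0.757).

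Chpf was lower in dKO cells under all 3 treatments. Under vehicle it had 14.5 ± 1.31 TPM in wildtype and 8.52 ± 0.728 TPM in dKO cells (SD, n = 3), a difference of -0.70 (SE 0.10, limma adjusted p = 0.000251). With MTOB the values were 19.8 ± 1.60 and 11.3 ± 1.37 TPM (SD, n = 3), a difference of -0.76 (SE 0.10, limma adjusted p = 0.00011), and with 4-Cl-HIPP 15.9 ± 1.42 and 7.30 ± 0.731 TPM (SD, n = 3), a difference of -1.02 (SE 0.10, limma adjusted p = 5.61e-06). The highest dKO sample, at 12.8 TPM, was below the lowest wildtype sample, at 13.2 TPM. Its polymerase partner Chsy1 differed by -0.09 under vehicle (SE 0.08, limma adjusted p = 0.578), from 20.4 to 20.8 TPM in wildtype to 18.9 to 19.5 TPM in dKO cells, without overlap.

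With MTOB dKO cells had less Chsy1 than wildtype cells, with 20.7, 22.6 and 21.5 TPM against 28.9, 24.7 and 26.7 TPM and a difference of -0.30 (SE 0.08, limma adjusted p = 0.0213). This call was lost without wildtype MTOB replicate 1 or 3 or dKO MTOB replicate 1 or 3 (limma adjusted p = 0.0582 to 0.103) and when the fit held the compared groups alone (0.0835). The calls for Ndst1 and Chpf in the 3 genotype comparisons passed in every alternative fit and whichever sample was left out (limma, adjusted p of at most 0.019).

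The remaining linker and heparan enzymes did not pass between genotypes. B4galt7 differed by -0.03 under vehicle (95% interval -0.24 to 0.17), B3gat3 by 0.19 (0.04 to 0.34) and Ext2 by 0.10 (-0.02 to 0.22), and their limma adjusted p was 0.113 to 0.907. Ext1 (ENSMUSG00000061731, chromosome 15, 52927434 to 53209602, minus strand), the other heparan sulfate polymerase subunit, was between 0 and 1.31 TPM in all samples. Its 3 wildtype vehicle samples had 0.0315, 0.0600 and 0.105 TPM and its dKO vehicle samples 0.309, 1.31 and 0.330 TPM, a difference of 0.58 whose 95% interval of 0.02 to 1.14 was wider than that of the other members tested (limma adjusted p = 0.216). Such low values depend on the pseudocount, and with 0.1 in place of 1 the difference was 1.95 (limma adjusted p = 0.119). With 4-Cl-HIPP in dKO cells it was listed at 0 in 1 sample and had 0.119 and 0.131 TPM in the others, below all vehicle samples, a difference of -0.56 (95% interval -1.12 to 0.003, limma adjusted p = 0.59) that was -1.87 with a pseudocount of 0.1 (adjusted p = 0.483).

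The summed macrophage markers were lower in every dKO than in every wildtype sample of the same treatment, with 2772 to 2862 TPM in wildtype and 2514 to 2582 TPM in dKO cells under vehicle, but the single markers went both ways. Under vehicle Cd14 (458 TPM in wildtype and 143 TPM in dKO cells) and Adgre1 (29.1 and 8.93 TPM) were lower in dKO cells, Itgam (15.8 and 47.9 TPM), Fcgr1 (33.2 and 52.3 TPM) and Cd68 (554 and 643 TPM) were higher, and the other 4 did not pass (limma). Their part in these results was not tested. Exons of Xylt1, B4galt7, B3gat3 and Chsy1 share between 1.55% and 8.65% of their bases with annotated long non-coding RNAs on the opposite strand (Gm71663, Gm15911, Gm36629 and Gm26827), and because the libraries were not stranded, reads from these stretches cannot be assigned to a strand.

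Beyond the members, 55 of 80 other genes of glycosaminoglycan metabolism, listed from general knowledge, were analysed here. With MTOB in wildtype cells 7 rose and 5 fell, with 43 not past the threshold, and in dKO cells 4 rose and 6 fell, where over all genes 3.8% rose and 3.46% fell in wildtype and 3.04% rose and 3.54% fell in dKO cells. With 4-Cl-HIPP 2 rose in wildtype and 3 in dKO cells and none fell (limma, Benjamini-Hochberg), beside 0.366% and 0.501% of all genes in either direction. In each genotype 7 of the 55 had an unadjusted p-value below 0.05 with 4-Cl-HIPP, beside 8.19% and 8.47% of all genes. The median difference over the 55 was -0.007 with MTOB in wildtype cells, as for all genes (-0.006).

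The 2 genes of the 55 that rose by more than 1.5-fold with MTOB were core proteins, and of 10 core proteins analysed 3 rose in each genotype, beside 3.8% of all genes in wildtype and 3.04% in dKO cells. Sdc4, a transmembrane heparan sulfate proteoglycan, rose from 22.2 ± 1.90 to 59.3 ± 2.00 TPM in wildtype cells (SD, n = 3, log2 difference 1.38, SE 0.08, limma adjusted p = 3.09e-08) and from 13.3 ± 0.648 to 42.9 ± 1.23 TPM in dKO cells (1.62, adjusted p = 6.42e-09). Srgn, which encodes serglycin, rose from 201 ± 10.7 to 422 ± 18.6 TPM in wildtype cells (SD, n = 3, 1.07, limma adjusted p = 1.07e-08) and by 0.84 in dKO cells, and Cd44, the hyaluronan receptor that can itself carry such chains, by 0.57 and 0.44. Under vehicle dKO cells had less Sdc4 (-0.695, limma adjusted p = 2.7e-05), less Srgn (-0.22, limma adjusted p = 0.0218) and more Cd44 (0.46, limma adjusted p = 7.69e-06).

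Among the sulfotransferases, Hs6st1 (0.28) and Hs3st3b1 (0.45), which add sulfate to heparan sulfate, and Chst12 (0.39) and Chst3 (0.39), which add it to chondroitin, rose with MTOB in wildtype cells (limma, adjusted p = 0.00528 to 0.0387). Of these only Hs6st1 passed in dKO cells (0.30, limma adjusted p = 0.00351). The difference between the genotypes in the effect of MTOB was 0.52 for Chst12, 0.35 for Hs3st3b1, 0.13 for Chst3 and -0.02 for Hs6st1, and none passed (limma, adjusted p = 0.388 to 0.985). Chst3 rose with 4-Cl-HIPP, from 5.37 to 8.28 TPM in wildtype and from 5.08 to 8.34 TPM in dKO cells (0.53 and 0.62, SE 0.11, limma adjusted p = 0.05 to 3 digits, just under the threshold, and 0.0153). Under vehicle dKO cells had less Hs3st3b1 than wildtype cells (4.31 against 7.51 TPM, -0.68, limma adjusted p = 0.000479). They also had less Chst14, a dermatan 4-O-sulfotransferase (4.36 against 9.70 TPM, -1.01, limma adjusted p = 0.000971), but more Hs6st1 (40.9 against 34.6 TPM, 0.23, limma adjusted p = 0.0114). Csgalnact2, which starts the chondroitin chain, was higher as well (22.2 against 17.3 TPM, 0.34, limma adjusted p = 0.00913). With either inhibitor Chst14 did not pass between genotypes, whereas Hs3st3b1, Hs6st1 and Csgalnact2 passed in the same directions as under vehicle.

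Of 14 lysosomal enzymes that degrade the chains, 5 fell with MTOB in wildtype and 4 in dKO cells, beside 3.46% and 3.54% of all genes, and none rose. Arsb, a sulfatase of dermatan and chondroitin sulfate, fell from 93.5 to 70.8 TPM in wildtype (-0.395, limma adjusted p = 2.89e-05) and from 97.8 to 77.7 TPM in dKO cells (-0.33, adjusted p = 0.000219). Of 13 genes for nucleotide sugars, sulfate donors and their transport, 0 passed with MTOB in wildtype cells (limma, 2 at an unadjusted p-value below 0.05, beside 18.4% of all genes) and 2 fell in dKO cells, where 3.54% of all genes fell, the sulfate transporter gene Slc26a2 (-0.31, adjusted p = 0.00674) and Papss1, which makes the sulfate donor (-0.37, adjusted p = 0.0394). The 2 other linker genes analysed, B3galt6 and Fam20b, did not pass in any of the 7 comparisons.

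**Figure D4:**
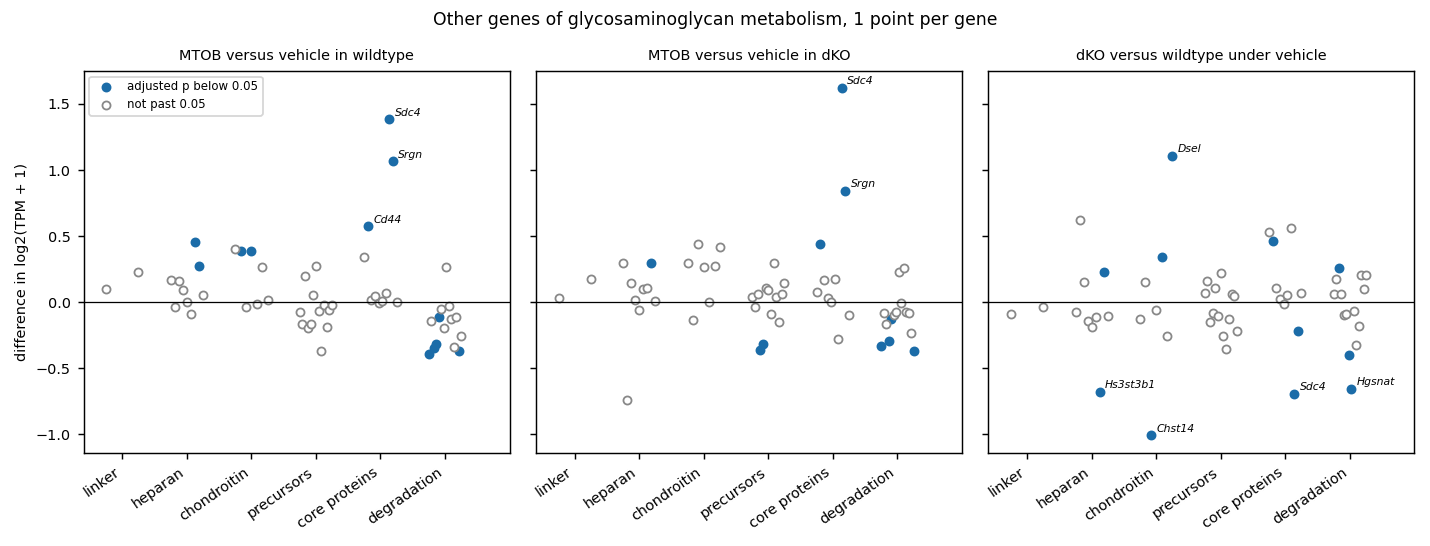
Differences in log2(TPM + 1) for 55 other genes of glycosaminoglycan metabolism, 1 point per gene, grouped by role along the x axis, for MTOB against vehicle in wildtype and in dKO cells and for dKO against wildtype cells under vehicle, where blue points have an adjusted p-value below 0.05. Sdc4 and Srgn are the highest called points with MTOB, at 1.38 and 1.07 in wildtype cells, and Dsel (1.11) and Chst14 (-1.01) mark the ends between genotypes. Under vehicle Dsel had a mean of only 0.0476 TPM in wildtype and 1.34 TPM in dKO cells. Between genotypes Dsel was also called with each inhibitor, and Chst14 with neither.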

How the data were processed

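RNA-seq of 18 J774.1 samples was analysed. Per the methods and the labels, the authors quantified transcripts with Salmon 1.9.0 on GRCm39, summarised them per gene and normalised them with DESeq2 1.44.0. Libraries were unstranded, from rRNA-depleted RNA in the methods and polyA RNA in the labels. The authors deposited 1 table with a TPM per gene and sample, plus 1 signal for each gene, its normalized count averaged over samples. The deposited log2 fold changes and adjusted p-values of the authors' own comparisons, of each inhibitor against vehicle in each genotype, were not used.

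Samples were grouped by title. The 16383 genes above the 10th percentile of the mean normalized count (0.222), all 9 members included, were fitted as 6 group means of log2(TPM + 1) in limma 3.58.1 (R 4.3.3, empirical Bayes, with the variance allowed to follow that mean count), with Benjamini-Hochberg adjustment over all genes of a comparison and a threshold of 0.05. For genes of low TPM such a log2 difference is smaller than the log2 ratio of TPM. The procedure was tested on simulated data. A planned test of Xylt1 between genotypes was dropped, since the list was chosen on those samples. The deviations of same-numbered replicates were barely correlated (r = -0.056 to 0.079), so no block was used. Alternatives were 2 other pseudocounts, no filter, no variance trend, TPM rescaled by median ratios, only the compared groups, a replicate block, a 1.5-fold limit and leaving out each sample.

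The members and lists were chosen with earlier results of these data known. Genes named were the members, Ctbp1 and Ctbp2, up to 3 genes per pathway list and comparison with the smallest adjusted p-value, and the 5 genes most like Xylt1. Of these, the genes whose values are given are a selection made after they were seen, and Ndst2, B3galt6, Fam20b and the promoter motifs were added at that point too. Positions are from GENCODE on GRCm39, and figures were drawn with matplotlib 3.10.9.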

Additional observations from a re-analysis of the deposited data

How the results depend on the processing

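No result changed direction with a call under any alternative. With a 1.5-fold limit beside the adjusted p-value the number of members past the threshold went from 3 to 0 for MTOB in wildtype cells and from 1 to 0 for MTOB in dKO cells. When the fit held the compared groups alone these counts were 1 and 0, and with TPM rescaled by median ratios 2 members were called with MTOB in dKO cells. Leaving out single samples gave 1 to 3 and 0 to 1 members for these comparisons, 2 to 3 for dKO against wildtype cells under MTOB, 2 under vehicle and under 4-Cl-HIPP, and 0 for 4-Cl-HIPP against vehicle in either genotype and for both differences of effects. The cause was not tested. With only the compared groups, the genes called over the whole table went from 1189 to 699 (MTOB, wildtype), 1078 to 305 (MTOB, dKO), 60 to 24 (4-Cl-HIPP, wildtype), 82 to 9 (4-Cl-HIPP, dKO) and 1829 to 995 (dKO against wildtype under MTOB). Rescaling moved the share of higher genes among those called with 4-Cl-HIPP in dKO cells from 80.5% to 68.8%. With the replicate number as a block, the member count was 3 for MTOB in wildtype cells and 3 for dKO against wildtype under MTOB, and no call of a member changed. All wildtype library numbers come before all dKO library numbers, so their order cannot be told apart from genotype. Within a genotype the library numbers run by replicate number, and the labels do not say what else same-numbered samples share. In 20 of 42 sample comparisons the closest of 3 samples was the one with the same number. Depth is unknown because TPM do not keep it, so the precision for Ext1 and Ndst1, the lowest of the members, cannot be given as a count.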
